A study of Mus musculus with 12 samples.

Results

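Many microRNAs are cut from long transcripts of their own host genes, and 4 such host transcripts were followed across thymic iNKT cells: Mir155hg, Mir17hg, Mir142hg and Mir22hg. They were chosen by symbol and make up 4 of the 48709 rows of the gene table. RNA-seq had been performed on invariant natural killer T (iNKT) cells sorted from the thymus of 7-week-old mice labelled C57BL/6J, to see which genes change when miR-155 is overexpressed. There were 12 libraries in 4 groups of 3: WT and miR-155KI cells, each as an NK1.1- pool (the earlier stages of iNKT development) and an NK1.1+ pool (the mature stage).

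The miR-155KI mice carried both copies of a miR-155 knock-in allele at the Rosa26 locus together with a CD4Cre transgene, which acts in T-lineage cells from the CD4-expressing thymocyte stage onwards and thus in conventional T cells as well as iNKT cells. The WT mice were littermates without Cre but with the knock-in allele, so that both groups carried the allele and differed in Cre. After CD8-bearing cells had been depleted, sorting used CD1d tetramer, TCRβ, CD44 and NK1.1. The sample labels name a SMART-Seq v4 kit and the methods a TruSeq kit, and the methods state that biological replicates were pooled, whereas each group has 3 libraries. No source ties a library to a mouse, so the p-values measure only the spread between these libraries, which may be technical.

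A host transcript is the long RNA (primary microRNA) in which a hairpin is recognised and cut out by the Drosha complex in the nucleus, before Dicer trims the hairpin to a mature microRNA that silences mRNAs through its seed. The level of a host transcript therefore reflects its transcription and its loss by cutting and decay, and is not a measure of the mature microRNA. In T cells, miR-155 is induced by antigen receptor signals, the miR-17-92 cluster favours growth and survival, miR-142 is a marker of blood cells in general, and miR-22 is broadly expressed.

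Per GENCODE M21 on GRCm38, which is the build named in the labels, Mir155hg (ENSMUSG00000097418.7) lies at chr16:84703167-84715245 on the plus strand, with 1433 exonic bases in 3 exon blocks, and the miR-155 hairpin is in exon block 3. Mir17hg (ENSMUSG00000089726.2) lies at chr14:115042879-115046727 on the plus strand, with 3536 exonic bases in 2 blocks, and all 6 hairpins of its cluster are in exon block 2. Mir142hg (ENSMUSG00000084796.1) lies at chr11:87755577-87757270 on the plus strand and has only 269 exonic bases in 2 blocks, and its hairpin is in the intron between them. Mir22hg (ENSMUSG00000085148.1) lies at chr11:75461539-75466676 on the plus strand, with 1924 exonic bases in 3 blocks, and its hairpin is in exon block 2. All 4 are non-coding, and Mir22hg overlaps the protein-coding gene Tlcd2 on the same strand, so reads of the shared stretch may have been assigned to either or to neither.

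**Figure D1:**
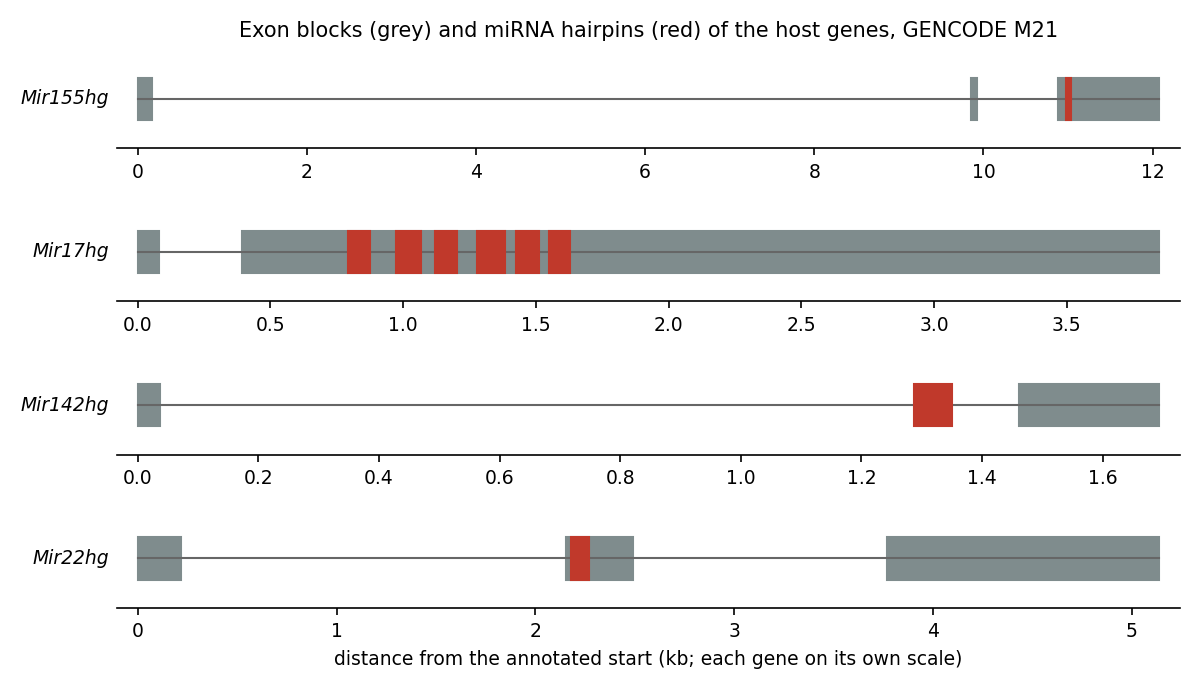
Exon blocks (grey) and microRNA hairpins (red) of the 4 host genes, drawn to scale by distance from the annotated start in kb, each gene on its own scale. The hairpins of Mir155hg, Mir17hg and Mir22hg lie within exons, and that of Mir142hg lies in the intron.

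The main mature products of these hosts, which are what a change of the host could bring into the cell, are given below from RefSeq (GRCm38.p6), 5′ to 3′, with the seed (bases 2 to 8) in capitals. All 9 hairpins were matched by name.
mmu-miR-155-5p: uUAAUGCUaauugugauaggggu
mmu-miR-17-5p: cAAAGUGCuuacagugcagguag
mmu-miR-20a-5p: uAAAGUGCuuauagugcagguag
mmu-miR-18a-5p: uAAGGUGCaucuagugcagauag
mmu-miR-19a-3p: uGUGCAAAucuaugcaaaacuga
mmu-miR-19b-3p: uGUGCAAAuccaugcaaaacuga
mmu-miR-92a-3p: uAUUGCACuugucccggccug
mmu-miR-142a-5p: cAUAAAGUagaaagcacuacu
mmu-miR-142a-3p: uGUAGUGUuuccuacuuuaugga
mmu-miR-22-3p: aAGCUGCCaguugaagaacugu
These 10 sequences hold 8 different seeds: miR-17-5p and miR-20a-5p share one, as do miR-19a-3p and miR-19b-3p, and the seed of miR-155-5p is shared with none of the others. Mir155hg and Mir22hg thus each feed 1 seed shown here, Mir142hg feeds 2, and Mir17hg feeds 4.

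Libraries held 12819476 to 20518257 counts. Klrb1c, which encodes NK1.1, had means of 70.1 and 43.4 CPM (counts scaled to library size) in WT and miR-155KI NK1.1- cells, against 526 and 534 CPM in the NK1.1+ pools, and the 4 T cell markers summed to between 2717 and 3766 CPM in all 12 libraries. The 5 iNKT1 markers summed to 2956 to 4561 CPM in NK1.1+ libraries, and in NK1.1- libraries to 980 to 1164 CPM in WT and 604 to 742 CPM in miR-155KI, where 4 of them fell. The 4 iNKT2 markers summed to 355 to 428 CPM in NK1.1+ libraries, and in NK1.1- libraries to 920 to 987 CPM in WT and 1137 to 1418 CPM in miR-155KI, where 1 of them rose. Other markers moved with genotype as well: the 5 iNKT17 markers all fell in miR-155KI NK1.1- cells (summed 10.4 to 12.8 CPM against 61.8 to 98.3 CPM in WT), and the 12 macrophage and dendritic cell markers summed to 211 to 858 CPM in miR-155KI NK1.1+ libraries against 36.5 to 41.0 CPM in WT NK1.1+ libraries. Those 12 markers summed to 39.6 to 160 CPM in NK1.1- libraries, the 6 B cell markers to 3.69 to 19.7 CPM in all libraries, and the 6 double-positive thymocyte markers to 4.91 to 41.2 CPM, except in miR-155KI NK1.1+ replicate 1, where they reached 168 CPM. None of these lists had a marker at 0 throughout a group. WT replicate 1 also stood apart from WT replicates 2 and 3 in sex-linked RNA: Xist was 12.6 and 11.4 CPM in its 2 pools and 135 to 237 CPM in the other WT libraries, and it was at most 35.0 CPM in every miR-155KI library. Such a sex-linked difference and genotype cannot be told apart except through WT replicate 1, and each genotype comparison was therefore also made with WT replicate 1 as its only WT library.

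Mir155hg, the host of the overexpressed microRNA, was the member that changed. In WT NK1.1- cells it had 13.0, 13.7 and 9.65 CPM, after TMM normalization (a scaling of library sizes) in replicates 1, 2 and 3, and in miR-155KI NK1.1- cells 144, 137 and 132 CPM. In WT NK1.1+ cells it had 12.1, 11.7 and 11.2 CPM, and in miR-155KI NK1.1+ cells 116, 128 and 95.2 CPM. All 6 miR-155KI libraries were well above all 6 WT libraries, and the lowest of them was miR-155KI NK1.1+ replicate 3.

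The group means of Mir155hg were 12.1 ± 2.15 CPM (SD, n = 3) in WT NK1.1- and 138 ± 6.19 CPM in miR-155KI NK1.1- cells. By edgeR's quasi-likelihood test with Benjamini-Hochberg adjustment, this was a log2 fold change of 3.49 (SE 0.15, adjusted p = 8.28e-08), or 11.2-fold with a 95% interval from 8.94-fold to 14.1-fold. No other gene of the 13304 tested had a smaller p. Mir155hg was 1 of 4 members called in this comparison, in which 3.44% of all genes were called, 1.93% as higher and 1.5% as lower.

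In NK1.1+ cells the means were 11.7 ± 0.490 CPM in WT and 113 ± 16.6 CPM in miR-155KI, a log2 fold change of 3.26 (SE 0.18, edgeR adjusted p = 3.31e-05), or 9.59-fold with an interval from 7.25-fold to 12.7-fold. Again it had the smallest p of all genes, 12991 here, and was 1 of 4 members called, beside a background of 0.0231% of genes called, all of them higher. The 3 genes called were Mir155hg itself and 2 of the macrophage and dendritic cell markers. With WT replicate 1 as the only WT library and with each library left out in turn, the rise remained past the threshold in both pools, at log2 fold changes from 3.34 to 3.61 in NK1.1- cells and from 3.16 to 3.38 in NK1.1+ cells. Markers of iNKT1, iNKT2 and iNKT17 cells moved with the NK1.1- comparison, and macrophage and dendritic cell markers with the NK1.1+ comparison, as given above. In NK1.1+ cells the 5 double-positive thymocyte markers tested also had the higher level in miR-155KI cells (median log2 fold change 2.37), and none passed the threshold. The part of any of these markers in the Mir155hg level was not tested. In bulk libraries, a smaller share of cells that express a gene and less RNA per cell cannot be told apart. Nor can reads of the endogenous Mir155hg gene be told apart, in a count per gene, from reads of an inserted copy that carries the same sequence.

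**Figure D2:**
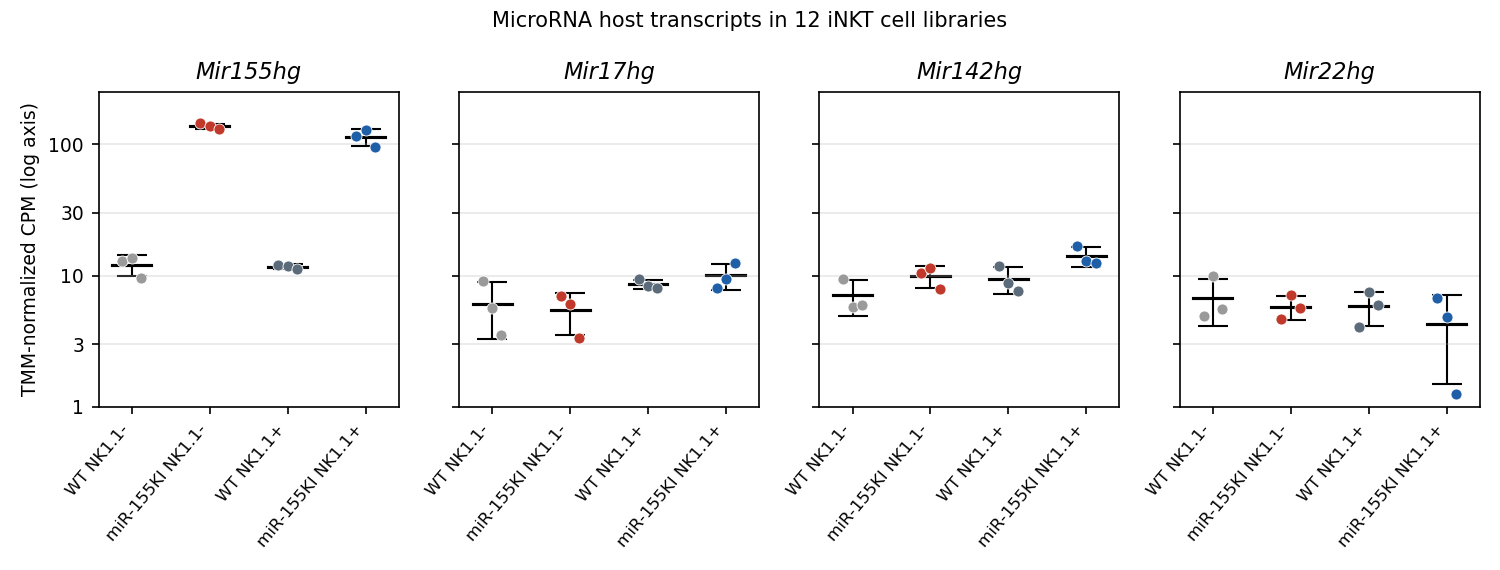
TMM-normalized CPM of the 4 host transcripts in each of the 12 libraries, on a log axis, with points for replicates 1 to 3 from left to right and black bars for the group mean ± SD. Mir155hg lay between 9.65 and 13.7 CPM in WT libraries and between 95.2 and 144 CPM in miR-155KI libraries, and the other members lay between 1.26 and 16.8 CPM in all libraries.

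The size of the Mir155hg rise was not shown to differ between the pools. The interaction of genotype and pool, which subtracts the NK1.1- effect from the NK1.1+ effect, was -0.23 on the log2 scale (SE 0.22, 95% interval -0.70 to 0.23, edgeR adjusted p = 0.863). None of the 4 members passed this test, in which 0.0278% of genes did. Within WT cells, Mir155hg was nearly level across the pools, with a log2 difference of -0.08 for NK1.1+ over NK1.1- cells (interval -0.56 to 0.40, edgeR adjusted p = 0.830). Within miR-155KI cells it was lower in the NK1.1+ pool by a log2 difference of -0.28 (interval -0.59 to 0.02, edgeR adjusted p = 0.219), and although the 3 values of each pool did not overlap, this did not pass the threshold. Here and below, a lack of overlap is description only, as the share of all genes without overlap is not given. From high to low, the groups ran from the NK1.1- to the NK1.1+ pool of miR-155KI mice and then from the NK1.1- to the NK1.1+ pool of WT mice, and both genotype differences passed the test while neither pool difference did.

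Mir17hg, the host of the miR-17-92 cluster, did not pass the test between genotypes. It had 9.15, 5.66 and 3.51 CPM in WT NK1.1- replicates 1 to 3 and 7.01, 6.09 and 3.32 CPM in miR-155KI NK1.1- replicates. In NK1.1+ cells it had 9.40, 8.35 and 8.06 CPM in WT and 8.03, 9.48 and 12.6 CPM in miR-155KI. The WT and miR-155KI values overlapped in both pools, and replicate 3 of either genotype was low in the NK1.1- pool. Its log2 fold change between genotypes was -0.17 in NK1.1- cells (SE 0.38, 95% interval -1.0 to 0.67, edgeR adjusted p = 0.867) and 0.20 in NK1.1+ cells (SE 0.36, interval -0.58 to 0.99, edgeR adjusted p = 0.871). The interval in NK1.1- cells spans from 0.50-fold to 1.59-fold. Leaving out WT NK1.1- replicate 1 turned the NK1.1- value to 0.23, and leaving out miR-155KI NK1.1- replicate 3 turned it to 0.09.

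The largest difference of Mir17hg was between the pools of miR-155KI cells, where means were 5.47 ± 1.92 CPM in NK1.1- and 10.02 ± 2.31 CPM in NK1.1+ cells. The 3 libraries of each did not overlap, and the log2 difference was 0.87 (SE 0.43, interval -0.08 to 1.82, edgeR adjusted p = 0.222), which did not pass the threshold. In WT cells the means were 6.11 ± 2.84 and 8.60 ± 0.706 CPM, the pools overlapped, and the log2 difference was 0.47 (edgeR adjusted p = 0.366). No member was called between the pools in either genotype, although 20.8% of genes were called in WT and 14.1% in miR-155KI cells.

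Mir142hg, the host of a microRNA made throughout the blood lineages, had higher means in miR-155KI than in WT cells in both pools, but neither difference passed the threshold. It had 9.49, 5.72 and 5.97 CPM in WT NK1.1- replicates and 10.4, 11.5 and 7.87 CPM in miR-155KI NK1.1- replicates. In NK1.1+ cells it had 11.8, 8.82 and 7.61 CPM in WT and 16.8, 12.9 and 12.4 CPM in miR-155KI. The genotypes overlapped in the NK1.1- pool through WT replicate 1 and did not overlap in the NK1.1+ pool. The log2 fold change was 0.48 in NK1.1- cells (SE 0.27, interval -0.11 to 1.07, edgeR adjusted p = 0.385) and 0.57 in NK1.1+ cells (SE 0.33, interval -0.16 to 1.30, edgeR adjusted p = 0.537).

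With WT replicate 1 as the only WT library, these log2 fold changes of Mir142hg were 0.07 and 0.25, well below those with all 3 WT libraries. Markers of macrophages and dendritic cells, which also make miR-142, moved with the NK1.1+ comparison: 8 of the 9 markers tested had the higher level in miR-155KI cells and 2 rose, with a median log2 fold change of 3.76. By library the marker sum was 371, 858 and 211 CPM in miR-155KI NK1.1+ replicates 1 to 3, so the highest Mir142hg value (replicate 1) and the highest marker sum (replicate 2) were in different libraries. The double-positive thymocyte marker sum was 168, 6.08 and 20.5 CPM in the same order, and thus highest in the library with the highest Mir142hg value. The part of these cells in the Mir142hg level was not tested. Between pools, the log2 difference of NK1.1+ over NK1.1- cells was 0.39 in WT (edgeR adjusted p = 0.389) and 0.50 in miR-155KI cells (edgeR adjusted p = 0.341), the latter without overlap.

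**Figure D3:**
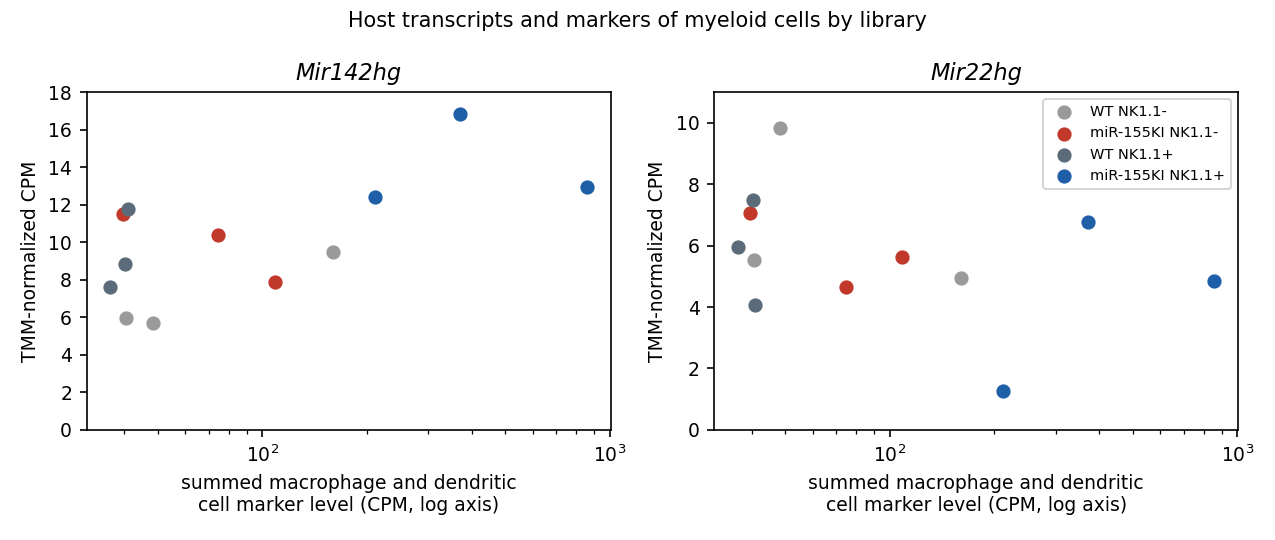
TMM-normalized CPM of Mir142hg (left) and Mir22hg (right) against the summed CPM of 12 macrophage and dendritic cell markers, on a log axis, with 1 point per library. The 3 miR-155KI NK1.1+ libraries stand to the right, at 211 to 858 CPM of marker RNA, and Mir142hg reached 12.4 to 16.8 CPM in them.

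Mir22hg, the host of the broadly expressed miR-22, had its lowest mean in the NK1.1+ pool of miR-155KI mice, where its spread was wide. It had 4.96, 9.84 and 5.52 CPM in WT NK1.1- replicates and 4.64, 7.07 and 5.62 CPM in miR-155KI NK1.1- replicates. In NK1.1+ cells it had 4.08, 7.47 and 5.96 CPM in WT and 6.77, 4.86 and 1.26 CPM in miR-155KI. All groups overlapped, and the last library stood far below the rest with only 20 counts, for which counting error alone is 22.4% of the value. Group means were 6.77 ± 2.67, 5.78 ± 1.22, 5.84 ± 1.70 and 4.29 ± 2.79 CPM, in the order WT then miR-155KI for NK1.1- cells and the same for NK1.1+ cells.

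The log2 fold change of Mir22hg between genotypes was -0.26 in NK1.1- cells (SE 0.33, interval -0.97 to 0.44, edgeR adjusted p = 0.730) and -0.46 in NK1.1+ cells (SE 0.62, interval -1.84 to 0.92, edgeR adjusted p = 0.827). The first turned to 0.13 without WT NK1.1- replicate 2, the highest library, and the second moved to -0.02 without miR-155KI NK1.1+ replicate 3, the lowest. Tlcd2, which overlaps Mir22hg and encodes a membrane lipid regulator, showed another course: it had means of 6.69 and 9.13 CPM in WT and miR-155KI NK1.1- cells and of 1.82 and 0.546 CPM in the NK1.1+ pools. It fell from the NK1.1- to the NK1.1+ pool by a log2 difference of -1.91 in WT and -4.05 in miR-155KI cells (edgeR adjusted p = 0.00181 and 0.00124), where the differences of Mir22hg were -0.25 and -0.43. Tlcd2 was chosen after its values were seen.

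**Figure D4:**
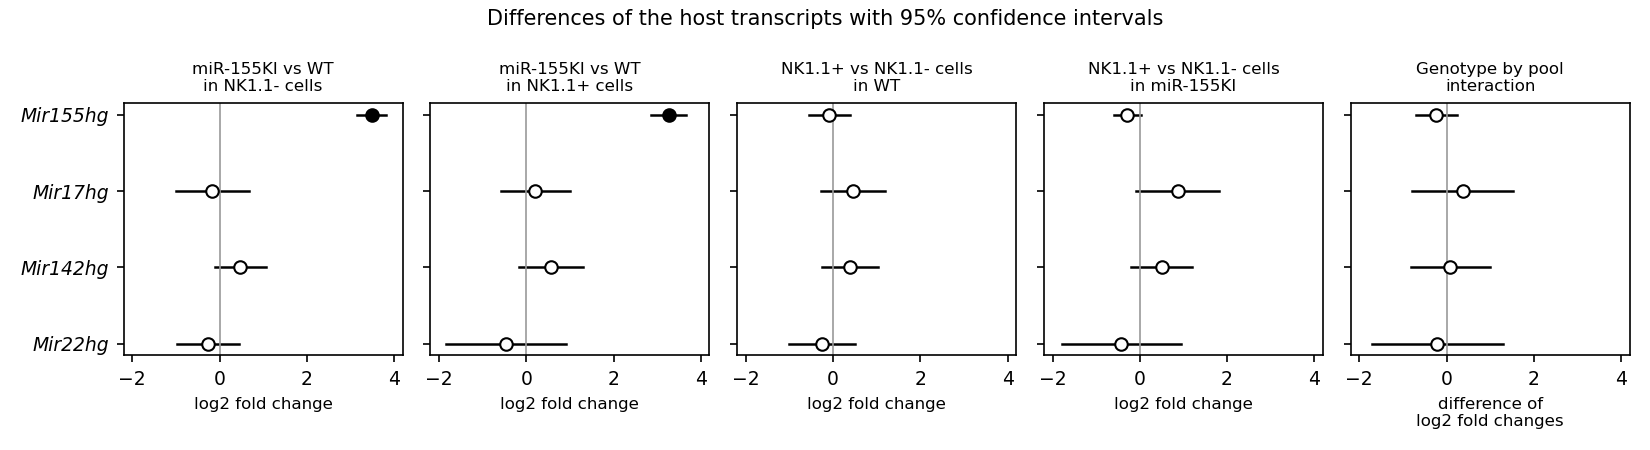
Log2 fold changes of the 4 host transcripts in the 4 comparisons, and the genotype by pool interaction, with 95% confidence intervals as lines and filled circles for an edgeR adjusted p under 0.05. The filled circles are Mir155hg at 3.49 and 3.26, and every other interval includes 0.

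Levels can be set side by side between the hosts only per length of exon. On that scale Mir142hg had the highest level in WT cells, at 26.2 CPM per kb in NK1.1- and 34.9 CPM per kb in NK1.1+ cells, followed by Mir155hg at 8.45 and 8.15, Mir22hg at 3.52 and 3.03 and Mir17hg at 1.73 and 2.43 CPM per kb. In miR-155KI cells Mir155hg led instead, at 96.0 and 79.0 CPM per kb, before Mir142hg at 36.9 and 52.3 CPM per kb, with Mir22hg at 3.00 and 2.23 and Mir17hg at 1.55 and 2.83 CPM per kb. The lengths come from GENCODE M21, whereas the annotation used for counting is not stated in the sources, and the short exons of Mir142hg make its level per kb the most dependent on it. For Mir155hg in miR-155KI cells the length is that of the annotated gene, which may not apply to reads of an inserted copy.

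No counts fell on the rows of the hairpins themselves. The 9 rows of the precursors hosted by the 4 members had 0 counts in all 12 libraries. As 8 of the 9 hairpins lie within exons of their host on the same strand, reads over them may have been given to the host or to neither, so these zeros set no limit on the level of the hairpins. The table holds 6 other rows named as microRNA hosts (Mir670hg, Mir124-2hg, Mir9-3hg, Mir124a-1hg, Mir99ahg and Mir133a-1hg), which had between 0 and 19 counts per library. Of these only Mir99ahg passed the filter on low counts in a genotype comparison, with a log2 fold change of -0.18 in NK1.1+ cells (edgeR adjusted p = 0.970).

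Gt(ROSA)26Sor, the transcript of the locus into which the knock-in was placed, did not follow Mir155hg. It ranged from 1.68 to 8.52 CPM in WT NK1.1- libraries and from 2.78 to 3.86 CPM in miR-155KI NK1.1- libraries, and in NK1.1+ libraries from 2.75 to 8.23 CPM in WT and from 2.39 to 3.51 CPM in miR-155KI. The highest WT value was in replicate 2 in both pools. WT replicates 1 and 3 had 1.68 and 2.51 CPM in NK1.1- and 3.00 and 2.75 CPM in NK1.1+ cells. The genotypes overlapped in both pools, with log2 fold changes of -0.35 (interval -1.55 to 0.86, edgeR adjusted p = 0.800) and -0.63 (interval -1.99 to 0.72, edgeR adjusted p = 0.732).

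The protein-coding genes nearest to the hosts did not pass the test between genotypes. Of 8 nearest protein-coding neighbours, 7 are in the table and 6 were tested, none of which was called in either pool. Mrpl39, which encodes a mitochondrial ribosomal protein and ends 2330 bases from Mir155hg, had log2 fold changes of 0.19 (edgeR adjusted p = 0.606) and 0.37 (edgeR adjusted p = 0.572) in NK1.1- and NK1.1+ cells, where Mir155hg rose by 3.49 and 3.26. Beside Mir142hg, the elongation factor subunit gene Supt4a had -0.26 and -0.31 and Bzrap1 (Tspoap1) had -0.73 and -0.35. Beside Mir22hg, Wdr81 had -0.14 and -0.67 and the splicing factor gene Prpf8 had -0.10 and 0.01. For Mir17hg, the nearest genes are farther off: Tpm3-rs7, 1726124 bases away, had -0.30 and -0.02. Gpc5, a glypican gene 45487 bases away, had at most 0.343 CPM in any library and was not tested. Between pools, Bzrap1 fell in WT cells by a log2 difference of -1.61 (edgeR adjusted p = 0.00514), and no other neighbour was called.

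The hosts were set among genes reported to drive or to follow them, in 2 lists. Of 14 transcription factors reported to act on these hosts (Rel, Rela, Nfkb1, Fos, Fosb, Jun, Junb and Myb for Mir155hg, Myc and E2f1 to E2f3 for Mir17hg, Spi1 and Runx1 for Mir142hg), 0 rose and 1 fell in miR-155KI NK1.1- cells, and none passed in NK1.1+ cells. In NK1.1- cells 3 fell by DESeq2 and without the filter on low counts (E2f2, Fos and Junb), and 2 fell without WT replicate 1 (E2f2 and Junb) or without miR-155KI replicate 2 (E2f2 and Fos). Over all genes, 490 of 13304 fell by DESeq2 and 483 of 27742 without the filter. Without WT replicate 1 it was 548 of 13809 genes, and without miR-155KI replicate 2 it was 139 of 13934. Over the 14, the medians of the log2 fold changes were -0.30 and 0.05, beside -0.00102 and 0.0223 over all genes tested. Of all genes, 1.93% were called higher and 1.5% lower between genotypes in the NK1.1- pool, and 0.0231%, all higher, in the NK1.1+ pool.

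E2f2, a cell cycle activator, was the one that fell. It had 47.0, 36.3 and 43.8 CPM in WT NK1.1- replicates and 27.6, 26.9 and 23.3 CPM in miR-155KI NK1.1- replicates, which do not overlap. Its log2 fold change was -0.72 (SE 0.15, edgeR adjusted p = 0.0199), and the list held 0 calls without WT NK1.1- replicate 3, without miR-155KI NK1.1- replicate 1 or 3, with WT replicate 1 as the only WT library, or in 1 fit of all 12 libraries. In NK1.1+ cells the value was 0.49 (edgeR adjusted p = 0.746).

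Rel, the NF-κB subunit c-Rel that is activated by antigen receptor signals, had 57.4, 180 and 112 CPM in WT NK1.1- replicates and 45.1, 69.6 and 38 CPM in miR-155KI NK1.1- replicates. In NK1.1+ cells it had 82.8, 217 and 217 CPM in WT and 66.3, 68.5 and 65.8 CPM in miR-155KI. WT replicate 1 was the WT library nearest to the miR-155KI libraries in both pools. The log2 fold changes were -1.22 (edgeR adjusted p = 0.331) and -1.39 (edgeR adjusted p = 0.201), and Rel was called in NK1.1+ cells only by DESeq2, without the filter on low counts, and without WT NK1.1+ replicate 1.

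Fosb, a subunit of the AP-1 factor, had log2 fold changes of -1.30 (edgeR adjusted p = 0.256) and -1.36 (edgeR adjusted p = 0.272), the latter called without the filter on low counts. Spi1, which encodes the myeloid factor PU.1, had 0.310, 0.525 and 1.0 CPM in WT NK1.1+ replicates and 9.48, 9.07 and 0.252 CPM in miR-155KI NK1.1+ replicates. It was thus high in the 2 libraries with the highest macrophage and dendritic cell marker sums. In miR-155KI NK1.1+ replicate 3 it had 0.252 CPM at a marker sum of 211 CPM, where WT NK1.1+ libraries had sums of 36.5 to 41.0 CPM. The part of these cells in the Spi1 level was not tested. The log2 fold change of Spi1, 3.32, did not pass the threshold (edgeR adjusted p = 0.297) except by DESeq2 and without the filter. Between pools more of the list moved: in WT cells 4 of 13 tested rose in NK1.1+ cells (Rela, Fos, Jun and Junb) and 5 fell (Myb, E2f1, E2f2, E2f3 and Runx1), and in miR-155KI cells 5 of 14 rose (those 4 and Fosb) and 2 fell (E2f1 and E2f2). The background called was 9.89% higher and 10.9% lower in WT, and 7.92% and 6.15% in miR-155KI cells. Between miR-155KI pools the list held 0 falls without NK1.1- replicate 1, 2 or 3 or NK1.1+ replicate 3. With a library left out there, Rela stayed called only without NK1.1+ replicate 1. Between WT pools E2f1 was not called without NK1.1- replicate 1 or 3 or NK1.1+ replicate 3. Rela was not called there without NK1.1- replicate 1 or NK1.1+ replicate 2 or 3.

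Of 8 reported targets of the miR-17-92 cluster in T cells (among them Bcl2l11, Phlpp2, Cyld, Tgfbr2, Creb1, E2f1 and Cdkn1a), 0 rose and 1 fell in miR-155KI NK1.1- cells and none passed in NK1.1+ cells, with median log2 fold changes of -0.24 and -0.19. Among all genes tested in the NK1.1- pool, 1.93% were called higher and 1.5% lower, with a median of -0.00102. The NK1.1+ pool had 0.0231% called, all of them higher, and a median of 0.0223. Whether the targets as a set differed from other genes was not tested. Cdkn1a, the cell cycle inhibitor p21, had 11.2, 32.6 and 18.8 CPM in WT NK1.1- replicates and 5.51, 8.12 and 5.41 CPM in miR-155KI NK1.1- replicates. The 2 sets do not overlap, and the log2 fold change was -1.75 (SE 0.38, edgeR adjusted p = 0.0387). This list held 0 calls in the NK1.1- pool when any of its libraries other than WT replicate 1 was left out, with WT replicate 1 as the only WT library, and in 1 fit of all 12 libraries.

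Bcl2l11, which encodes the death-inducing protein Bim, had 27.9, 69.8 and 61.0 CPM in WT NK1.1- replicates against 18.1, 29.3 and 18.7 CPM in miR-155KI, and 64.1, 188 and 288 CPM against 41.7, 44.6 and 58.2 CPM in NK1.1+ cells. WT replicate 1 was again the WT library closest to the miR-155KI ones. The log2 fold changes of -1.30 (edgeR adjusted p = 0.144) and -1.92 (edgeR adjusted p = 0.266) did not pass the threshold, except without WT replicate 1 in either pool and, in NK1.1- cells, without the filter on low counts or with the replicate number as a block. Creb1, a transcription factor, had -0.28 and -0.21, and Tgfbr2, a TGF-β receptor, had 0.17 and -0.11, none past the threshold. Between pools, 1 of 8 rose (Tgfbr2) and 1 fell (E2f1) in WT cells. In miR-155KI cells 2 rose (Bcl2l11 and Cdkn1a) and 1 fell (E2f1). Over all genes, 9.89% were called higher and 10.9% lower in WT, and 7.92% and 6.15% in miR-155KI cells. The list held 0 calls in WT without WT NK1.1- replicate 1 or WT NK1.1+ replicate 3. It also held 0 calls in miR-155KI cells without miR-155KI NK1.1- replicate 1 or 3. E2f1 is in both lists.

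**Figure D5:**
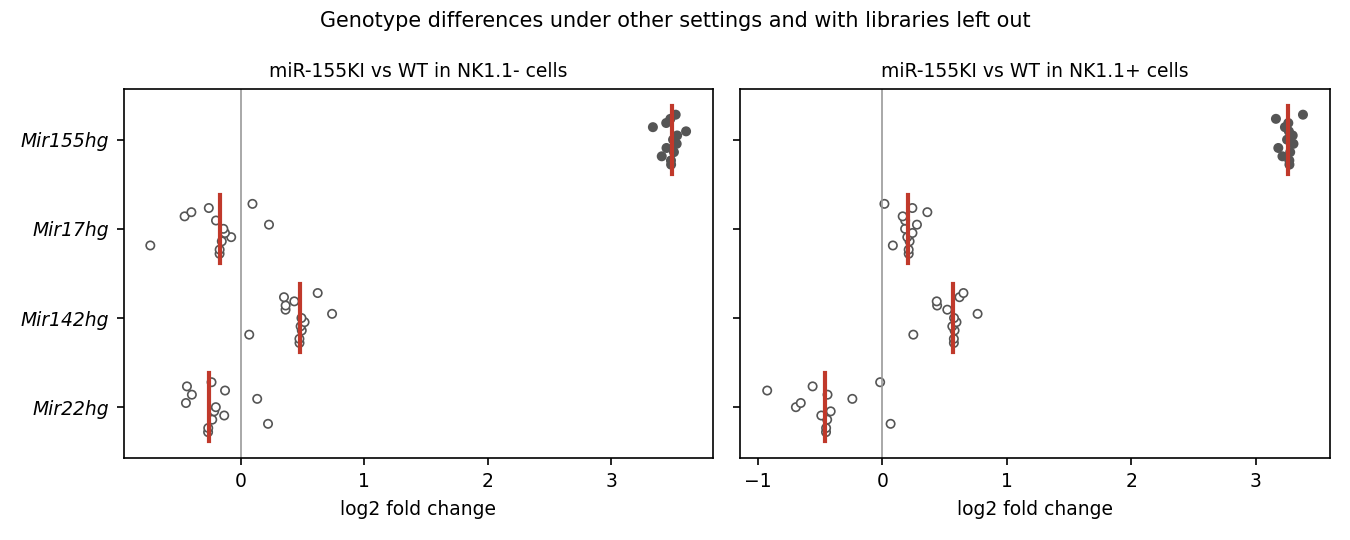
Log2 fold changes of the 4 host transcripts between genotypes in NK1.1- (left) and NK1.1+ (right) cells under 13 alternatives each (points, filled where the adjusted p was under 0.05) and as reported (red lines). Mir155hg stays between 3.16 and 3.61 and is filled throughout, and the points of Mir17hg in NK1.1- cells and of Mir22hg in both pools lie on both sides of 0.

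As a description over the 12 libraries, with 12718 genes compared on log2 CPM, the genes whose pattern was most like each host were Gtpbp8 (Pearson r = 0.925), Mgst2 (0.912) and Meis3 (0.905) for Mir155hg. Mgst2, for example, had means of 62.9 and 53.3 CPM in WT NK1.1- and NK1.1+ cells and 126 and 94.1 CPM in miR-155KI cells, a smaller fold than that of Mir155hg. As it was picked for its likeness to Mir155hg over these libraries, its difference by genotype is not a separate result. For Mir17hg they were Nemp2 (0.942), Slc25a33 (0.896) and Klhl28 (0.892), for Mir142hg they included Ccdc137 (0.923) and U2af1l4_2 (0.918), and for Mir22hg Pi4k2a (0.952), Cdv3 (0.939) and Jph3 (0.929). Among the hosts themselves the highest r was 0.625, between Mir17hg and Mir142hg, and 0.569 after removing the group means, and the lowest was -0.49, between Mir17hg and Mir22hg. All these points share libraries, depth and groups.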

How the data were processed

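RNA of sorted thymic iNKT cells from 12 libraries was analyzed, grouped by their labels. The authors deposited raw counts per gene. Per the labels, bcl2fastq 2.17.1.14 and GRCm38 (mm10) were used, and the aligner and counter are not stated. A signal table named CPM was also deposited, each value being the count times 1 factor per library. Of 48709 rows, 27 bear names that look like dates.

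Counts were tested with edgeR 4.0.16 (R 4.3.3; TMM, default filter on low counts, robust quasi-likelihood test, Benjamini-Hochberg over all genes tested, threshold 0.05), each comparison on its own 6 libraries and the interaction on all 12. Levels are TMM CPM over 12 libraries. The test was also run on simulated data, and the outcome is not reported here. Alternatives were DESeq2 1.42.0, its size factors, no filter, limma 3.58.1 on log2(CPM + 1) of the deposited table, a replicate block, 1 fit of all 12 libraries, WT replicate 1 as the only WT library, and each library left out. Named genes were the 4 members, Klrb1c, every neighbour and Rosa26 row with counts, up to 4 genes per list with the smallest p between genotypes, and the 3 genes most correlated with each member (unnamed predicted genes left out). Some genes of the lists and of this rule are not reported here. Other genes called in a list between pools, Xist and Tlcd2 were named after their values were seen. Members and lists were chosen with earlier results of these data known. Figures were drawn with matplotlib 3.10.9, and annotation was read with pandas 2.3.3 in Python 3.11.15.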

Additional observations from a re-analysis of the deposited data

How the results depend on the processing

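Of 67 values of Mir155hg under the alternatives, 66 kept their direction and side of the threshold, and the 26 for the 2 genotype comparisons were all past it. None of the 201 values of the other 3 members was past the threshold (lowest adjusted p 0.106), but 14 changed sign; the cause was not tested. With WT replicate 1 as the only WT library, Mir22hg had log2 fold changes of 0.219 (NK1.1- cells) and 0.0672 (NK1.1+ cells), and here the lone library is assumed to vary like the others. With each library left out, the genotype value in NK1.1- cells ranged from -0.46 to 0.23 for Mir17hg and from -0.45 to 0.13 for Mir22hg. The pool difference ranged from -0.23 to 0.0117 for Mir155hg and -0.47 to 0.11 for Mir22hg in WT, and from -0.91 to 0.0132 for Mir22hg in miR-155KI cells. The interaction ranged from -0.0388 to 0.65 for Mir17hg, -0.19 to 0.28 for Mir142hg and -0.65 to 0.25 for Mir22hg.

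The counts of genes called, which serve as background, depended more on the setting. Between genotypes in NK1.1- cells 457 genes were called, against 1048 without the filter, 962 by DESeq2, 139 in 1 fit of all 12 libraries, 157 with WT replicate 1 as the only WT library, and 186 to 917 with a library left out. In NK1.1+ cells 3 were called (1539 at an unadjusted p under 0.05), against 282, 241, 60, 1 and 1 to 125 in the same order, and without WT NK1.1+ replicate 1 the split was 15 higher and 110 lower. The interaction called 4, against 7 with the DESeq2 size factors, 162 without the filter, 124 by DESeq2 and 3 to 46 with a library left out. Between pools, leaving out a library gave 1832 to 3264 genes against 2819 in WT and 788 to 2542 against 1821 in miR-155KI cells.

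Samples of 1 replicate number did not deviate together throughout: the correlations of their deviations were 0.0559, 0.116 and 0.0816 between genotypes in NK1.1- cells, -0.0743, -0.00749 and 0.00216 for NK1.1+ cells, 0.293, 0.243 and 0.0988 between WT pools and 0.117, 0.0689 and 0.0611 between miR-155KI pools. Of 6 libraries, 6, 0, 5 and 6 were closest to their own number, which is a hint from the data only. With the number as a replicate block, the calls between genotypes were 737 genes (NK1.1- cells) and 7 genes (NK1.1+ cells), with 23 in the interaction, and no member's call changed (Mir155hg 3.50 and 3.25), while of the listed genes Fos, Fosb, Junb and Bcl2l11 fell as well in NK1.1- cells and Fosb in NK1.1+ cells. Between WT pools with this block, 6 of 13 transcription factors tested rose and 5 fell, with Fosb and Rel added. Of the 8 miR-17-92 targets there, 4 rose and 1 fell, with Bcl2l11, Cdkn1a and Cyld added. Between miR-155KI pools 5 of 14 factors rose and 3 fell, with Myb added, and the target calls were unchanged. The share of all genes called between pools with this block is not given here. Mir22hg had the lowest count of the members, 20 in miR-155KI NK1.1+ replicate 3, a library of 16481450 counts. In that group its SD between libraries was 65.1% of the mean, against 12.1% for counting error at the mean count.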
